A study of Caenorhabditis elegans with 2 samples.

Results

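The genes described here serve the entry of proteins into the secretory pathway, their glycosylation and folding in the endoplasmic reticulum (ER), and their transport to the cell surface. They were chosen by symbol, as every protein-coding gene of Caenorhabditis elegans whose name begins with sec-, algn-, pdi-, emc-, spcs-, srpa-, ostb-, ostd-, dad- or ribo-. This gave 50 of the 19973 protein-coding genes of the nuclear chromosomes. The set was proposed with results of these data already known, and the value that selected it was the presence of ZIP-5-eGFP peaks in its promoters. Counts of peaks over the set are therefore a description and were not tested. Genes of the same pathway with other names were not members, and 54 of them are described at the end.

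Binding of ZIP-5, a transcription factor of the basic leucine zipper (bZIP) class, was mapped by chromatin immunoprecipitation sequencing (ChIP-seq). The labels give 1 group of 2 biological replicates: hermaphrodite late embryos of strain OP544, genotype unc-119(tm4063) III; wgIs544, collected 4 hours after synchronization by bleaching. The insertion wgIs544 carries zip-5 with a C-terminal GFP-FLAG tag, in animals with no stated change at their own zip-5 gene, and the tagged protein was recovered with an antibody against GFP. Whole embryos were used, so the cells that contributed a peak are not known. There was no second group, and no immunoprecipitation from untagged animals was used here, so a peak need not mark ZIP-5 itself.

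Proteins bound for secretion or for membranes are recognized as their signal sequence leaves the ribosome, by the signal recognition particle, and pass through the Sec61 channel of the ER. Signal peptidase removes the signal sequence. An oligosaccharide, built on a lipid by the ALG enzymes, is then transferred to asparagine residues by the oligosaccharyltransferase, and disulfide isomerases help the protein fold. COPII coats carry finished cargo out of the ER, and the exocyst tethers secretory vesicles at the plasma membrane. Roles below are those known from yeast or mammalian homologues unless the worm is named.

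The promoter window of a gene covered the 1000 bp before its outermost annotated start and the 200 bp after it. Of the 50 members, 13 (26.0%) had a summit of the authors' optimal set of 746 reproducible peaks in that window. Over all protein-coding genes the share was 3.32%. This contrast chose the set, so no inference is drawn from it. The relaxed lists, which the authors describe as peaks with background, reached further. Of the members, 20 had a summit in the list called on both alignments together (40%, against 10.8% of all protein-coding genes). In the replicate 1 list 18 had one (36%, against 12.6%) and in the replicate 2 list 23 (46.0%, against 13.6%). All 3 relaxed lists held a summit in the window for 16 members (32.0%, against 7.07%), which were the 13 of the optimal set and 3 more. Those 3 of the 50 stand against 3.77% of all protein-coding genes that were in all 3 lists but outside the optimal set. A further 4 of the 50 members were in 2 of these lists, against 3.87% of all protein-coding genes outside the optimal set. Only 1 list held 5 of the 50, near the 8.03% of all protein-coding genes. The other 25 members (50%) had no summit in the window in any list, against 81.0% of all protein-coding genes.

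**Figure D1:**
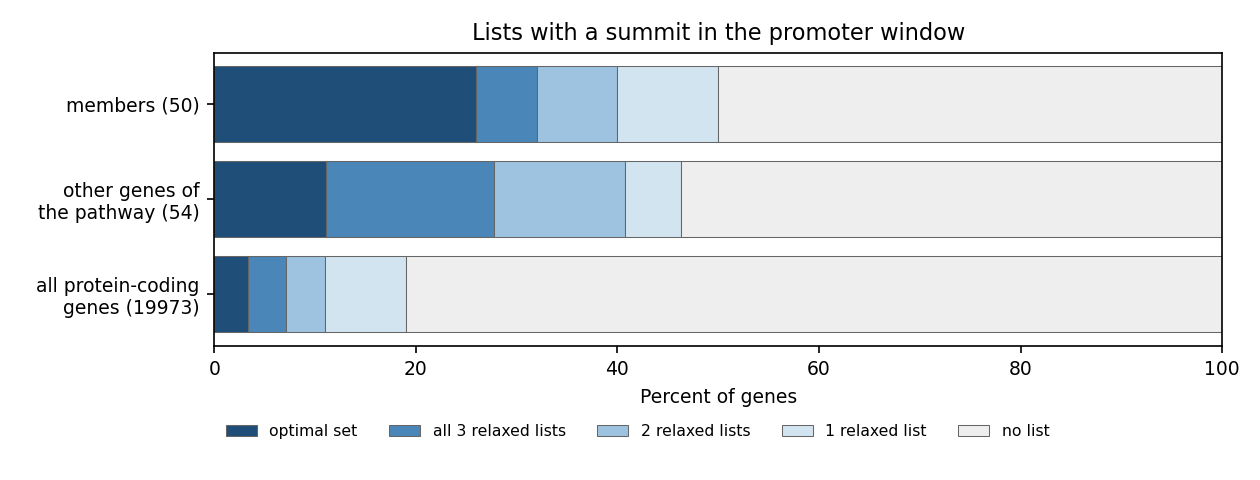
Percent of genes by the lists with a summit in the promoter window, for the 50 members, the 54 other genes of the pathway and all 19973 protein-coding genes. Each bar is divided into genes in the optimal set (26.0% of members, 11.1% of the other pathway genes and 3.32% of all genes), genes outside it in 3, 2 or 1 of the relaxed lists, and genes in no list.

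The 13 member peaks had a median strength near that of all promoter peaks, and none was among the strongest. Their signal in the optimal set, a peak score of the authors with no stated scale, had a median of 162 and ran from 111.1 to 255.8 for the 12 described by name below, and that of all 457 promoter peaks from 95.24 to 2499 with a median of 167.8. Of the member peaks 7 (53.8%) were in the stronger 50% of the optimal set, and of all promoter peaks 245 (53.6%). Every one of the 13 peaks had a match in both replicate lists, as did all 457 promoter peaks. Of those 12 the weakest inside the optimal set was pdi-6 (111.1, rank 621 of 746). The strongest member outside it was algn-5 (84.2, rank 914 in the list called on both alignments), below the weakest peak of the set (95.24).

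Of the 3 subunits of the Sec61 channel, the pore through which nascent chains enter the ER, sec-61.B and sec-61.G had a peak and sec-61.A, which encodes the pore-forming subunit, had a summit in no list. The beta subunit gene sec-61.B (chromosome IV, 2388185 to 2388675, minus strand) had a signal of 73.58 in replicate 1 and 65.06 in replicate 2, and of 135.8 in the optimal set (rank 474). Its summit lay at -478 bp, in an exon of the non-coding RNA gene Y38F2AR.17 and at -292 bp from the start of trap-3 on the opposite strand. That neighbour encodes a subunit of the translocon-associated protein complex, which sits beside the Sec61 channel, so 1 peak (IV, 2388931 to 2389374) lay between genes of neighbouring parts of the same machine. The gamma subunit gene sec-61.G (V, 10896658 to 10897143, minus strand) had a signal of 82.42 in replicate 1 and 76.28 in replicate 2, and of 162 in the optimal set (rank 369, peak V, 10897148 to 10897591). Summits of both replicates and of the optimal set fell on the same base, at -227 bp. The window held 2 summits in the replicate 1 list and in the list called on both alignments, and the stronger is given.

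The sequence around the sec-61.B and trap-3 summit is shown because it had the highest GC content of the 13 (57.7% over 201 bp, against a median of 39.3% for all promoter peaks) and none of the 10 words searched. It is given 5′ to 3′ in the direction of sec-61.B, from ce11 chrIV:2389053-2389253, minus strand, with the summit at its centre.
sec-61.B: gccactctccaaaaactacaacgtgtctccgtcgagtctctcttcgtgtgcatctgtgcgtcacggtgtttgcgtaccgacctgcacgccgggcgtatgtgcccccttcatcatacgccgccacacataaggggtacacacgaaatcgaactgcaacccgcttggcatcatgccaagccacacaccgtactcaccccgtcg

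The signal recognition particle binds the signal sequence on the ribosome, and srpa-72 encodes a subunit that binds the particle's RNA. Its window held a summit in the replicate 2 list only (signal 29.7, rank 3876 of 6945), at 41 bp beyond its start, and none in the optimal set.

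Of 4 signal peptidase genes only spcs-2, a subunit that accompanies the catalytic one, had a peak in its window. Its signal was 70.43 in replicate 1 (rank 451), 103.9 in replicate 2 (rank 256) and 179.2 in the optimal set (III, 12874672 to 12875115). The summit at -137 bp was also at -238 bp from mrg-1, a chromodomain gene on the opposite strand that is known for its part in germline chromatin. The catalytic subunit gene sec-11, spcs-1 and spcs-3 had no summit in the window in any list. The start of spcs-3, however, lay 236 bp behind the end of K12H4.5 on the same strand, and the strongest peak of the whole data (III, 8043709 to 8044211, signal 2499, rank 1 in both replicate lists) had its summit at -531 bp from K12H4.5. Measured from spcs-3 that summit was at -1061 bp, just beyond the window, and the near edge of the peak was at -806 bp.

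The oligosaccharyltransferase, which transfers the finished oligosaccharide to protein, had 4 members. Only dad-1, a small membrane subunit whose loss in mammalian cells leads to apoptosis, was in the optimal set. Its peak (chromosome I, 6554485 to 6554928) had a signal of 92.06 in replicate 1, 117.2 in replicate 2 and 211.2 in the optimal set. The summit lay at -417 bp from dad-1, in an exon of the non-coding RNA gene F57B10.17. It was only at -22 bp from tre-1, a trehalase gene on the opposite strand. The other 3 were weaker or absent. For ostb-1 the signal was 33.52 in replicate 2 (rank 2383) and for ostd-1 31.47 (rank 3063), neither had a summit in the replicate 1 list, and ribo-1, a ribophorin gene, was in no list.

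The ALG enzymes form the largest group, with 13 members, of which 3 had a peak in the optimal set: algn-13, algn-14 and algn-6. In yeast the products of ALG13 and ALG14 together form the enzyme that adds the second N-acetylglucosamine to the lipid, with ALG14 as the membrane anchor. Here algn-13 had a signal of 112.4 in replicate 1 and 94.21 in replicate 2, and of 205.4 in the optimal set (rank 244, peak V, 13961980 to 13962423). Its partner algn-14 had 93.66 in replicate 1 and 88.08 in replicate 2, and 181.4 in the optimal set (rank 295, peak IV, 3803225 to 3803668). Both subunits of this enzyme thus had a peak in each replicate, as did all 457 promoter peaks of the optimal set.

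The summit of algn-13 lay at -225 bp, midway to R10D12.13 on the opposite strand (-215 bp). That of algn-14 was the closest to a start of the 13, at -21 bp, and at -134 bp from M02B7.2, again on the opposite strand. The glucosyltransferase gene algn-6, which acts at a late, lumenal step, had 96.12 in replicate 1, 92.66 in replicate 2 and 196.1 in the optimal set (rank 257, peak II, 8039397 to 8039840). Its summit was at -183 bp, and at -22 bp from ubh-4, a ubiquitin hydrolase gene on the opposite strand.

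Outside the optimal set, algn-5 and algn-10 had a summit in all 3 relaxed lists. For algn-5, which encodes the enzyme that makes the glucose donor of the lumenal steps, the replicates differed. The signal was 33.56 in replicate 1 (rank 1773) and 59.14 in replicate 2 (rank 621), with summits at -540 and -615 bp. For algn-10, which adds the last glucose, it was 27.15 in replicate 1 (rank 3892) and 38.82 in replicate 2 (rank 1462). The remaining 8 ALG genes, algn-1, algn-2, algn-3, algn-7, algn-8, algn-9, algn-11 and algn-12, had no summit in the window in any list. They include algn-7, the gene of the first step of the pathway, and the mannosyltransferase genes algn-1, algn-2, algn-3, algn-9, algn-11 and algn-12.

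The sequences of the partner genes algn-13 and algn-14 are shown because their peaks held different words. Each is given 5′ to 3′ in the direction of its gene with the summit at the centre, from ce11 chrV:13962102-13962302, minus strand, and chrIV:3803347-3803547, minus strand. Capitals mark the words: in algn-13 the GC box GGGCGG in its reverse complement, which begins 30 bp before the summit, and in algn-14 an overlap of ACTCCTCT in its reverse complement with GGAGTACA, followed by GTGGCCTA.
algn-13: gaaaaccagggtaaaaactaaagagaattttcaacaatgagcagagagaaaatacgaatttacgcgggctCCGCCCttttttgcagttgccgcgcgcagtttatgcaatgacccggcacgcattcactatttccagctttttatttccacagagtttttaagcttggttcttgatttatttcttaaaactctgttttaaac
algn-14: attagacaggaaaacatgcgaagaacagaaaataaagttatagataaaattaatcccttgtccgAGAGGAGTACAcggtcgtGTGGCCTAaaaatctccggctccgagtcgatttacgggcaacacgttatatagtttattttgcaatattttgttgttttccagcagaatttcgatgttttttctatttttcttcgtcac

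Protein disulfide isomerases make and rearrange disulfide bonds in the ER. Of pdi-1, pdi-2, pdi-3 and pdi-6, only pdi-6 was in the optimal set (X, 7068380 to 7068823, signal 111.1, rank 621), with its summit at -39 bp and no neighbour sharing it. Its signal was 47.34 in replicate 1 (rank 787) and 65.59 in replicate 2 (rank 529). It was not among the 746 strongest peaks of replicate 1. The window of pdi-2 held a summit in replicate 1 only (34.77, rank 1579 of 6253), and pdi-1 and pdi-3 were in no list.

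The ER membrane protein complex inserts some membrane proteins into the ER membrane. Of its 5 members, emc-1, the gene of its large lumenal subunit, was in the optimal set (II, 1500336 to 1500779, signal 123.8, rank 545, summit at -228 bp), with no neighbour sharing the peak. Its window held 1 summit in the optimal set and 1 in the list called on both alignments, but 2 in each replicate list. In replicate 1 the stronger lay at -58 bp (61.5) and the one nearest the optimal summit at -267 bp (51.87). In replicate 2 the stronger lay at -292 bp (71.17). Of the others, emc-6 was in the replicate 2 list and the list called on both alignments, emc-5 in the replicate 2 list only, and emc-2 and emc-3 in none.

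The peaks of pdi-6 and emc-1 are shown because no neighbour shared them and each held more than 1 of the words searched. Both are given 5′ to 3′ in the direction of the gene, from ce11 chrX:7068502-7068702, minus strand, and chrII:1500458-1500658, minus strand. In pdi-6 the capitals mark the palindrome TTGCGCAA, a recognition site of C/EBP factors, which starts on the summit base itself, and a GC box in its reverse complement. In emc-1 they mark a GC box in its reverse complement and, at the other end, CTAGGCCA overlapping the reverse complement of GTGGCCTA.
pdi-6: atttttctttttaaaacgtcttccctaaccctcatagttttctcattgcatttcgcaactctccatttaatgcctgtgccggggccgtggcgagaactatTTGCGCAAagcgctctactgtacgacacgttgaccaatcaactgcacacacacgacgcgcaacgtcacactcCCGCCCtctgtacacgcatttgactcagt
emc-1: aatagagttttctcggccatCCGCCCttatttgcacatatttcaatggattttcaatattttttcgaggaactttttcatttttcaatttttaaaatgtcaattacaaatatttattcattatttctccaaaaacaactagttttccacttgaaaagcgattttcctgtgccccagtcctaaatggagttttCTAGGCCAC

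Among the 6 exocyst members, sec-15 had the strongest peak of all members (X, 8835897 to 8836340, signal 255.8, rank 149). The signal was 138.3 in replicate 1 (rank 134) and 119.7 in replicate 2 (rank 189). Its summit, at -404 bp, lay inside the tRNA gene WBGene00022947 and in an exon of C28G1.2, which starts on the opposite strand (the summit at 103 bp beyond its start). The part of the tRNA gene in this peak was not tested. No other member peak lay within 100 bp of a tRNA or snoRNA gene, so 12 members had a peak when such peaks were left out, against 3.11% of all protein-coding genes. In the same group sec-3 was in all 3 relaxed lists (36.15 in replicate 1, rank 1401, and 39.06 in replicate 2, rank 1443), and sec-8 in the replicate 1 list (34.56) and the list called on both alignments. The genes sec-5, sec-6 and sec-10 were in none. For sec-6 the nearest optimal summit lay at -1167 bp (II, 5358163 to 5358606, signal 246.3), at -310 bp from bmy-1, the gene that precedes sec-6 on the same strand by 82 bp. The same summit was closer to the start of F09E5.11, at -198 bp.

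The sec-15 sequence is shown because its summit lies in that tRNA gene. It is given 5′ to 3′ in the direction of sec-15, from ce11 chrX:8836019-8836219, minus strand. The capitals mark GGGTTCGA, a word of the B box of tRNA genes, in its reverse complement.
sec-15: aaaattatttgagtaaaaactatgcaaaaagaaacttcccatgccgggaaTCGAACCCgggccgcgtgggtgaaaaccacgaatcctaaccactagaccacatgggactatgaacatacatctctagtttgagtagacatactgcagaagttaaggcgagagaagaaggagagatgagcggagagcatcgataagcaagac

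COPII coats form vesicles at ER exit sites. Of 7 members, sec-12 and sec-23 had a peak, and in yeast their products act on the same GTPase, Sar1: Sec12 activates it and Sec23 stimulates its hydrolysis of GTP. The peak of sec-12 (chromosome I, 8511250 to 8511693) had a signal of 65.51 in replicate 1, 63.26 in replicate 2 and 127 in the optimal set (rank 518). Its summit, at -157 bp, was shared with no other gene. The peak of sec-23 (V, 20090638 to 20091081) had 54.93 in replicate 1, 61.01 in replicate 2 and 120.1 in the optimal set (rank 563), with the summit at -403 bp and at -117 bp from dcs-1, a scavenger decapping enzyme gene on the opposite strand. The cargo adaptor gene sec-24.1 and the exit site scaffold gene sec-16A.2 were in the replicate 2 list only (26.01 and 28.19). The outer coat gene sec-31, the second cargo adaptor gene sec-24.2 and sec-16A.1 were in none. Neither SNARE member, sec-20 or sec-22, whose products take part in traffic between Golgi and ER, had a summit in any list.

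**Figure D2:**
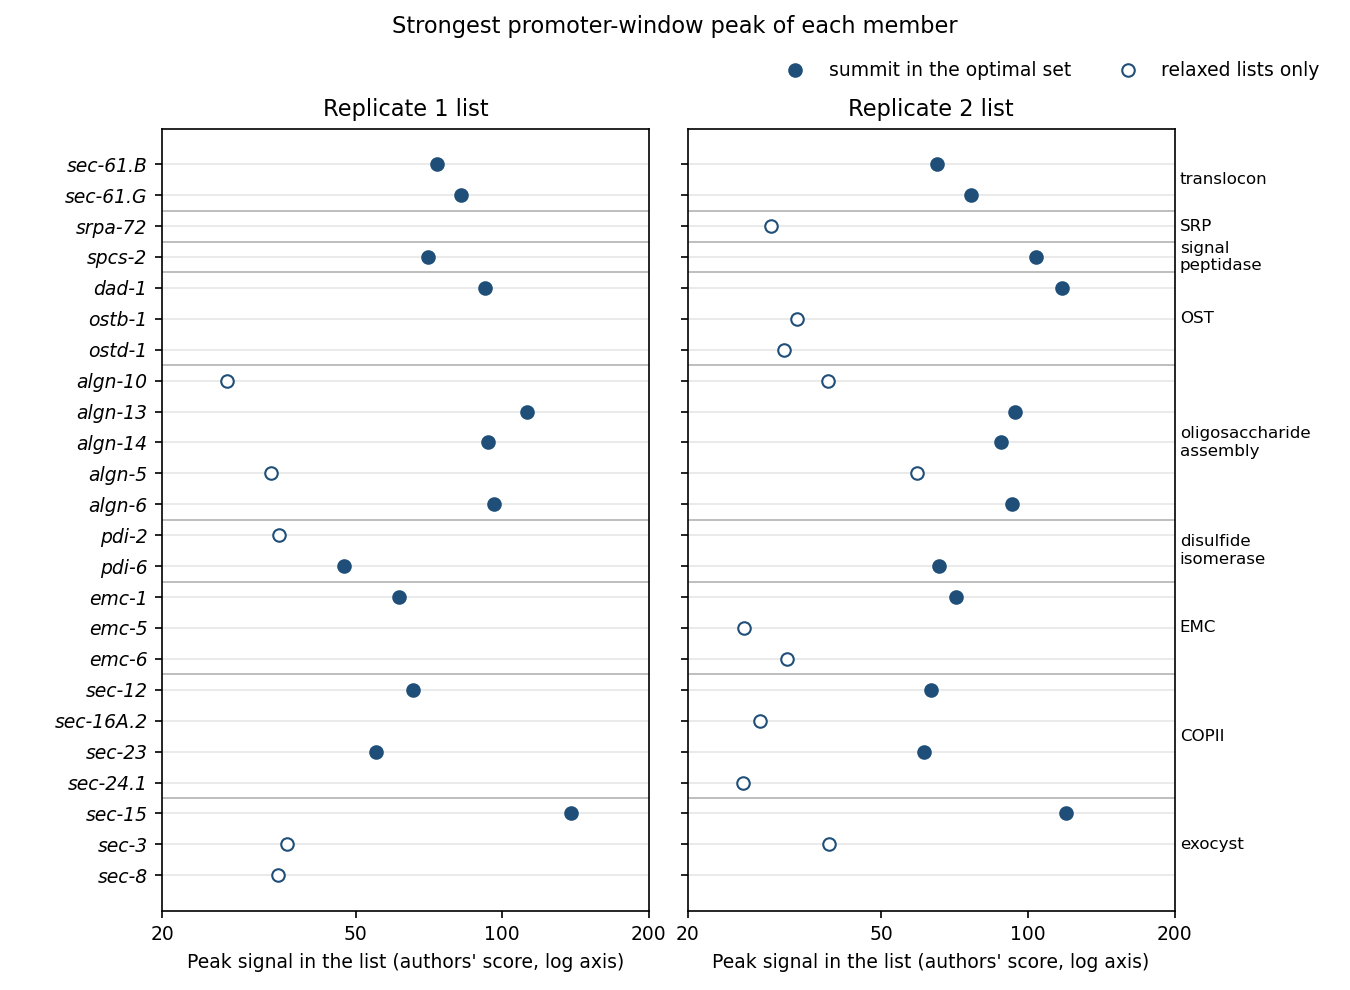
Signal of the strongest peak in the promoter window of 24 members present in any list, in the replicate 1 list (left) and the replicate 2 list (right), on log axes, grouped by role (SRP, signal recognition particle; OST, oligosaccharyltransferase; EMC, ER membrane protein complex). Filled points are 12 members in the optimal set, from 47.34 (pdi-6) to 138.3 (sec-15) in replicate 1 and from 61.01 (sec-23) to 119.7 (sec-15) in replicate 2. Open points are members in relaxed lists only, and a missing point means no summit in that list.

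Both libraries placed the member peaks closely. Replicate summits had a median distance of 18 bp, against 20 bp over all promoter peaks, and were between 0 and 40 bp apart for the 12 described above. They were within 50 bp of each other for 12 of the 13 (92.3%) and for 82.3% of all promoter peaks. The ranks of the peaks described by name ran from 134 to 787 in replicate 1 and from 189 to 591 in replicate 2. The median rank over all 13 was 425 in replicate 1 and 412 in replicate 2, against 342 and 350 over all promoter peaks. The median signal was 73.58 in replicate 1 and 76.28 in replicate 2, against 84.08 and 85.91. The rank was better in replicate 1 for 7 of the 13 (53.8%), and for 53.6% of all promoter peaks. Taken from the 746 strongest peaks of replicate 2 alone, 14 members had a summit in the window, the 13 and algn-5 (3.27% of all protein-coding genes had one). From those of replicate 1 alone 11 had one (3.29% of all), and pdi-6 was among the genes lost. The optimal set was derived from these lists, so the match between them is not independent support.

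**Figure D3:**
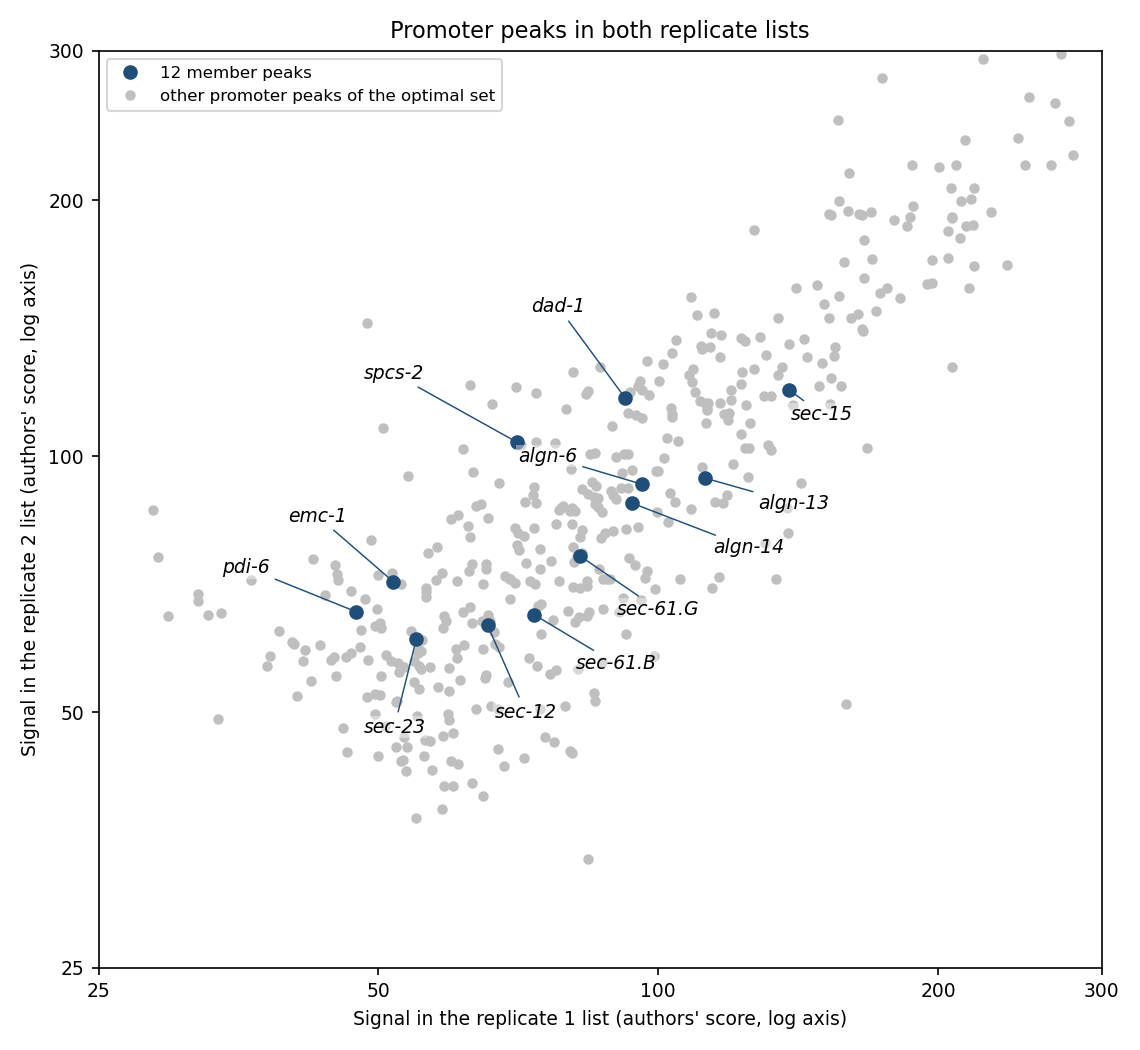
Signal in the replicate 1 list (x axis) and the replicate 2 list (y axis), both log axes, of 12 member peaks (named, matched by overlap with the optimal peak) and of the other promoter peaks of the optimal set. Of 457 promoter peaks 440 are drawn, and 16 with a signal above 300 in either list are beyond the axes. The member peaks lie in the lower and middle part of the cloud, below 140 in replicate 1 and below 120 in replicate 2.

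Most member peaks were shared with another gene. Of the 13 summits, 10 (76.9%) also lay in the window of another protein-coding gene, and 9 (69.2%) in windows of both strands. Over all promoter peaks these shares were 47.7% and 44.4%. The shares are not counted alike. Member peaks were reached through genes, so a shared peak could enter through either gene, while all promoter peaks were counted once each. Over all protein-coding genes, 664 had a summit in the window, from only 457 peaks. The difference between the shares therefore cannot be read as a trait of the members, and it was not tested. Among the 13, sec-12, emc-1 and pdi-6 had no sharing gene. For sec-61.G the summit was shared with F32D8.13 on the same strand (-827 bp). With every summit assigned to 1 gene, that whose start was closest, 6 of the 50 members kept a peak (sec-12, emc-1, pdi-6, algn-14, spcs-2 and sec-61.G), which is 12%, against 2.23% of all protein-coding genes. For the other 7, among them dad-1, algn-6 and sec-15, the neighbour's start was closer. The peaks alone do not say which of the genes, if either, ZIP-5 acts on. Member summits lay between -478 and -21 bp from the start of the member (median -225 bp), and none lay inside a member's transcribed region.

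**Figure D4:**
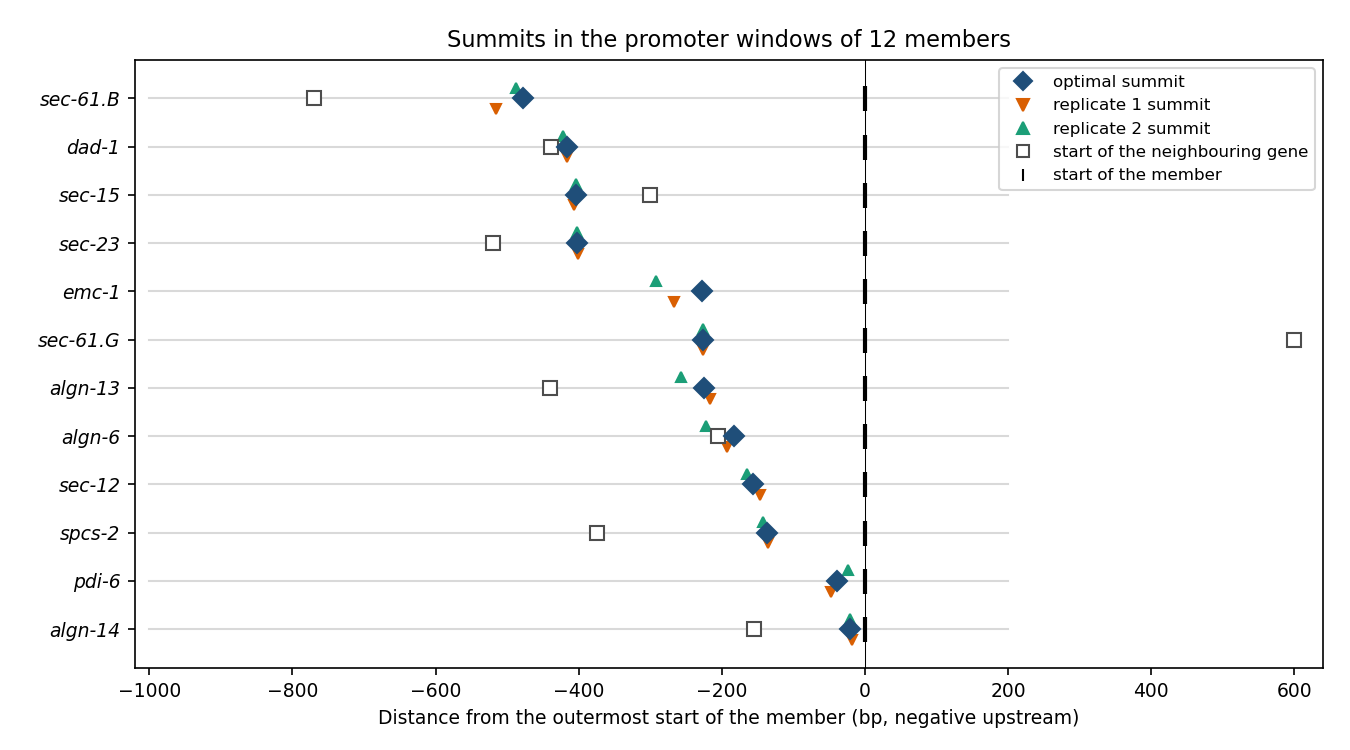
Position of 12 member peaks relative to the outermost annotated start of the member (x axis, bp, upstream negative), with the optimal summit, the replicate 1 and replicate 2 summits nearest to it, and the start of the neighbouring gene whose window also holds the summit. Grey lines span the promoter window. Summits lie between -478 bp (sec-61.B) and -21 bp (algn-14), and for 8 members the neighbour's start lies upstream on the opposite strand.

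Members also varied in the gene that precedes them. For 20 members the next gene upstream was on the opposite strand and overlapped the member or lay within 1000 bp of it (40%, against 21.3% of all protein-coding genes), and 9 of these 20 (45.0%) had a peak in the optimal set. Over all protein-coding genes in that position the share was 8.36%. For 21 members the next gene upstream was equally close but on the same strand (42%, against 30.7%), and 1 of these 21, sec-12, had a peak (4.76%, against 2.21%). Such close genes on 1 strand are often parts of operons in the worm, where a downstream gene is transcribed from the promoter of the gene before it. Operons are not marked in the annotation used. Of the 21, 2 had an optimal summit in the window of the gene before them (9.52%, against 4.88% of all such genes), spcs-3 behind K12H4.5 and sec-6 behind bmy-1. The share of 9.52% rests on these 2 genes, and its difference from 4.88% was not tested. The summit at bmy-1 was also in the window of F09E5.11.

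The words searched within 100 bp of the 13 summits had been chosen with earlier results of these data known. Both strands were read, and the shares over all 457 promoter peaks and over 201 bp windows centred 200 bp upstream of every protein-coding start stand beside each. At least 1 of the 10 words lay at 7 of the 13 summits (53.8%), at 51.0% of all promoter peaks and in 29.5% of promoters. The GC box GGGCGG was the most frequent, at 4 summits (algn-13, dad-1, emc-1 and pdi-6, 30.8%), against 13.1% of promoter peaks and 4.67% of promoters. Within 50 bp of the summit it was at 2 of the 13 (15.4%), against 9.19% of promoter peaks. CTAGGCCA lay at 2 (sec-12 and emc-1, 15.4%), against 17.3% and 0.966%, and its overlapping word GTGGCCTA at 2 (algn-14 and emc-1), against 11.6% and 0.641%. Within 50 bp CTAGGCCA was at 1 of the 13 (7.69%), against 15.8% of promoter peaks, and GTGGCCTA at 1 (7.69%), against 10.7%. Each of these counts rests on 4 genes or fewer.

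ACTCCTCT and GGAGTACA were both found at algn-14 alone, against 9.41% and 8.97% of promoter peaks and 0.606% and 0.631% of promoters. TTGCGCAA was found at pdi-6 alone, against 2.41% and 0.371%, and GGGTTCGA at sec-15 alone, against 3.94% and 0.315%. The bZIP sites TGACGTCA, the cyclic AMP response element, and TGACGTG, the core of an element bound by XBP1 in mammals under ER stress, lay at none of the 13 summits, and neither did the GATA site TGATAA. TGACGTCA was at 0.875% of promoter peaks and in 1.26% of promoters, TGACGTG at 2.19% and in 1.81%, and TGATAA at 9.41% and in 21.2%. Each count of 0 rests on 13 peaks only, and its difference from these shares was not tested. Within 200 bp of the summit TGATAA was at 4 of the 13 (30.8%), against 22.8% of promoter peaks, so its count of 0 holds for the shorter distance only.

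Over the whole windows of 1201 bp, the GC box was in those of 4 of the 13 members with a peak (30.8%), 8 of the 37 without (21.6%) and 19.2% of all protein-coding genes. TGATAA was in 9 of 13 (69.2%), 23 of 37 (62.2%) and 72% of all. CTAGGCCA was in those of 3 of the 13 members with a peak (algn-6, emc-1 and sec-12, 23.1%), in 1 of the 37 without (algn-3, 2.7%) and in 3.48% of all protein-coding genes. TGACGTG was in 0 of 13, in 6 of 37 (16.2%, algn-8, emc-6, ostb-1, pdi-1, ribo-1 and sec-31) and in 9.42% of all genes. These counts are small, and differences between members with and without a peak were not tested. TGACGTCA was in none of the 50 windows and in 5.89% of all. A match of letters is not a bound site.

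Of 55 further gene names of the pathway, 54 were found in the annotation, and 6 of these (11.1%) had a summit of the optimal set in the window, against 3.32% of all protein-coding genes. In the relaxed lists their shares were near those of the members: 40% of members and 38.9% of these genes in the list called on both alignments, 36% and 37% in replicate 1, 46% and 38.9% in replicate 2, and 32% and 27.8% in all 3. Of the glycan genes, 3 of 10 had an optimal summit. The strongest was aman-2, the Golgi alpha-mannosidase II gene that trims N-glycans (V, 11933296 to 11933665, signal 512.1, rank 31), a peak shared with F58H1.3. The replicate peaks nearest its summit, at -272 bp, had a signal of 305.4 in replicate 1 and 147.3 in replicate 2, and replicate 2 had a stronger summit, 207.5, at -166 bp. Next was dpm-3, a subunit of the enzyme that makes the mannose donor, with 405.6 (rank 48), a peak shared with the ribosomal protein gene rps-23. The N-acetylglucosaminyltransferase I gene gly-13, which opens the route to complex N-glycans, had 185.2 (rank 286) at -143 bp, shared with no gene. The other 3 were trap-3, described above, copz-1, a COPI coat gene (218.1, shared with cyn-4), and exoc-7, an exocyst gene (167.2, shared with tufm-2).

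None of the 11 ER folding genes or the 9 genes of ER stress and degradation was in the optimal set, against 3.32% of all protein-coding genes. With so few genes, this absence is near that share. All 3 relaxed lists held 4 of the 11 and 2 of the 9, against 7.07% of all protein-coding genes. In all 3 relaxed lists were the chaperone genes hsp-3 (31.82 in replicate 1 and 42.07 in replicate 2), enpl-1 and dnj-20, the glucosyltransferase gene uggt-1 (43.61 in replicate 1 and 41.31 in replicate 2), which senses misfolded glycoproteins, the stress sensor gene atf-6 (27.47 in replicate 1 and 42.89 in replicate 2) and cup-2. The other hsp-70 chaperone gene of the ER, hsp-4, was in the replicate 2 list (28.52, rank 4576) and the list called on both alignments. For xbp-1, the bZIP factor of the unfolded protein response, the strongest summit was in the replicate 1 list only (24.99, rank 5388), and ire-1 was in none.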

How the data were processed

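Per the labels and the file listings deposited with them, the authors made 4 peak lists in ce11: 1 for each of the 2 replicates against a control, 1 on both alignments together, and the optimal set of 746 peaks derived from these by the irreproducible discovery rate. The replicate lists hold 6253 and 6945 entries. The aligner, the peak caller and their settings were not given in the sources used here. Sequencing depth is unknown. The deposited signal value per peak has no stated scale and was used only within a list. Lists in ce10 were not used, and no coordinate was converted.

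Summits were joined to Ensembl 115 genes of WBcel235 (the ce11 coordinates) with Python 3.11.15 and pandas 2.3.3. The joining step was tested on simulated data. Sequences were read from the RefSeq copy of WBcel235, and all nuclear peaks ended inside its chromosomes. Replicate peaks were matched to optimal peaks by an overlap of at least 1 bp, taking the nearest summit. In the description by role, and in the plot of signals, the strongest summit in the window was used, except for emc-1, where both are given. Coordinates count from 1.

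The members, the lists, the words and the sequences shown were chosen with earlier results of these data known. Named with values were members with an optimal summit, members with a summit in all 3 relaxed lists, the peaks next to the threshold, and sharing neighbours. One member with a peak is counted in the totals but not reported here, and it is left out of the figures. The remaining members named with values were added after their values were seen. No test was made: the peaks chose the members, and there was 1 group of 2 replicates.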

Additional observations from a re-analysis of the deposited data

How the results depend on the processing

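The results were recomputed under 31 alternatives, and 28 stayed within 1.5 times the main value. With every summit assigned to the closest start alone, 6 members had one in place of 13. When only the stronger 50% of the optimal set was used, 7 had one, while the count over all protein-coding genes was 366 in place of 664. The changes with the stronger 50% follow from counting fewer peaks. A window of 2000 bp upstream, or counting any base of the peak, gave 15 members, with spcs-3 and sec-6 added, against 4.17% and 3.6% of all protein-coding genes. A window of 500 bp, or the start of any transcript, gave 13, against 2.67% and 3.53%. Without replicate 1 the count was 14 (3.27% of all genes), and without replicate 2 it was 11 (3.29%). Counts of single words at the summits moved with the distance searched, as given for the GC box, CTAGGCCA, GTGGCCTA and TGATAA. No paired analysis was possible because there was 1 group. Depth is unknown, so absence from a list does not show absence of binding.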
